A study of Caenorhabditis elegans with 15 samples.

Results

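The yolk protein genes of Caenorhabditis elegans are vit-1, vit-2, vit-3, vit-4, vit-5 and vit-6, which encode vitellogenins, the large lipid-carrying proteins that provision eggs. They were taken by gene name, and all 6 were present once each among the 46904 gene identifiers of the series. Vitellogenins are made in the intestine of the adult hermaphrodite, secreted into the body cavity and taken into growing oocytes by RME-2, a receptor of the low-density lipoprotein receptor family. In the intestine their transcription is known to depend on the GATA factor ELT-2 and on the homeodomain proteins UNC-62 and CEH-60, and MAB-3 is known to repress it in males. Because the transcripts lie in the soma and the proteins serve the germline, a whole worm library reads yolk production in the intestine rather than yolk in the eggs.

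Whole adult worms grown on solid media were sequenced in 15 libraries, 3 for each of 5 genotypes. WT was the N2 wild type. The other strains were fbf-2, fbf-1, 3xlnc (linc-4; linc-29; linc-7) and fbf-1 3xlnc, which carries the same 3 linc mutations together with fbf-1; the labels name the mutated genes but not the alleles, the sex or the day of adulthood. FBF-1 and FBF-2 are related PUF family RNA-binding proteins of the germline, and the linc genes give long intervening noncoding RNAs; the series asks what each set of mutations does to the transcriptome. The molecule label is total RNA for WT, fbf-2 and 3xlnc and polyA RNA for both strains with fbf-1, although the same mRNA kit is given for all. Nothing in the labels tells whether replicates are separate cultures; p-values therefore reflect only how these libraries vary, and that variation may be technical.

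The libraries held 9068700 to 38453738 counts, the fewest in WT replicate 1. The fbf-1 transcript, measured in CPM (counts scaled to a library total of 1000000), was at 7.80 to 8.57 CPM in the libraries carrying fbf-1 and at 35.4 or more in the others. The fbf-2 transcript was at 6.10 to 7.30 CPM in fbf-2 and at 26.02 or more elsewhere. Every library of 3xlnc and fbf-1 3xlnc had 0 counts of linc-4, linc-7 and linc-29, which at a floor of 3 counts allows up to 0.0995 to 0.173 CPM. Ribosomal RNA genes took 4.62% of the counts of WT replicate 1 against 0.516% and 0.976% in replicates 2 and 3, and between 0.164% and 4.13% elsewhere. Markers of the intestine, the tissue that makes yolk, summed to between 4921 and 7957 CPM over 22 genes, and those of oocytes and eggshell to between 12536 and 16782 CPM over 16 genes. Markers of male neurons were almost unrepresented, at 0.497 to 1.15 CPM over 7 genes.

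Of the 6 genes, 5 lie on the X chromosome and vit-6 on chromosome IV of the WBcel235 build, and all are annotated as protein coding. The gene vit-2 (WBGene00006926) spans X:5101042-5106169 on the plus strand, vit-1 (WBGene00006925) spans X:7727889-7733168 on the plus strand, and vit-5 (WBGene00006929) spans X:3403471-3408603 on the plus strand. The genes vit-4 (WBGene00006928, X:3558769-3563965) and vit-3 (WBGene00006927, X:3567355-3572549) are neighbours on the minus strand, with 3389 bases between them. The gene vit-6 (WBGene00006930) spans IV:8261157-8266459 on the plus strand and is the only one with 2 annotated transcripts. Their exons add up to between 4870 bases (vit-5) and 5088 bases (vit-1), so a difference in counts between members is little affected by length. The genes fall by known sequence likeness into vit-1 with vit-2, vit-3 with vit-4 and vit-5, and vit-6 alone, whose precursor is cleaved into smaller yolk polypeptides. Near copies can share reads, and with the rule for counting them not given in the sources used here, values of single genes within a family are less certain than the family sum.

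Yolk transcripts were among the most abundant of the worm. In all 15 libraries vit-6 ranked first or second of all genes by count, vit-2 between 2 and 3, vit-5 between 3 and 5, vit-1 between 4 and 6, vit-3 between 6 and 9 and vit-4 between 7 and 16. Per kilobase of exon the order was vit-6, vit-2, vit-5, vit-1, vit-3 and vit-4 in each of the 15 libraries. In WT the levels per length were 4747 ± 1367 CPM per kilobase for vit-6, 4099 ± 1170 for vit-2, 2648 ± 683 for vit-5, 2097 ± 543 for vit-1, 1286 ± 344 for vit-3 and 980 ± 257 for vit-4 (SD, n = 3). Across the WT libraries the levels of each pair of neighbours in this order overlapped, although the order inside a library did not vary. In fbf-1 3xlnc, where the libraries lay closest, vit-6 stood at 6665 ± 119 and vit-2 at 5847 ± 46.8 CPM per kilobase (SD, n = 3), and no neighbours in the order overlapped.

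Together the 6 genes took 5.50%, 9.72% and 8.49% of all counts in the 3 WT libraries (mean 7.90% ± 2.17, SD). They took 4.82%, 5.59% and 5.95% in fbf-2 (5.45% ± 0.577) and 7.85%, 8.20% and 7.48% in 3xlnc (7.84% ± 0.362). The shares were 11.9%, 12.2% and 12.6% for the fbf-1 strain (12.3% ± 0.373) and 10.98%, 11.003% and 11.13% for fbf-1 3xlnc (11.04% ± 0.0813). WT thus had the widest range of any genotype, and its replicate 1 lay below every 3xlnc library and within the range of fbf-2. Every library labelled polyA RNA lay above every library labelled total RNA. That gap cannot be told apart from the molecule label, which separates the same libraries, so fbf-1 was not tested against WT. At these depths counting error was small, as the widest 95% Wilson interval reached 1.11% of the value to either side. In whole worms, a smaller part of the RNA coming from the intestine and less yolk RNA per intestinal cell cannot be told apart.

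**Figure D1:**
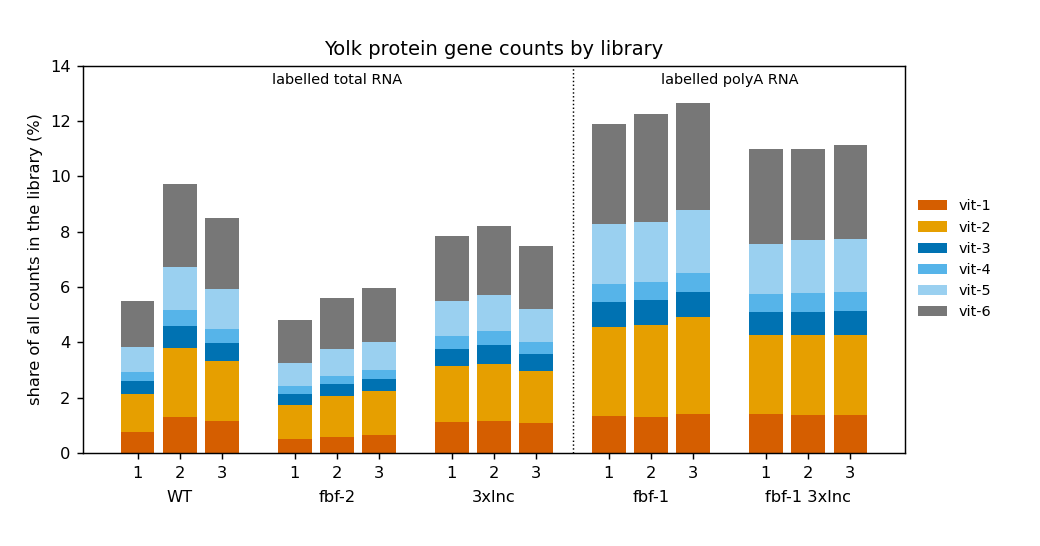
Share of all counts of each library taken by the 6 yolk protein genes, in percent, stacked by gene; each bar is 1 library, numbered within its genotype, and the dotted line separates libraries labelled total RNA from those labelled polyA RNA. WT ranges from 5.50% to 9.72%, fbf-2 from 4.82% to 5.95%, and all fbf-1 and fbf-1 3xlnc libraries are at 10.98% or more.

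In fbf-2 worms vit-1 was called lower, at 0.550 times its WT level in mean share, and the other yolk genes had lower estimates that did not pass the test. The vit-1 call was lost when any 1 library other than WT replicate 1 was left out. vit-1 took 0.758%, 1.29% and 1.15% of the counts in WT and 0.512%, 0.600% and 0.648% in fbf-2. All 3 fbf-2 libraries lay below all 3 of WT, with WT replicate 1 the nearest to them. The family sum of vit-1 and vit-2, the more certain value, was 3.09% in WT and 2.03% in fbf-2 on average. In that sum the groups overlapped, with WT replicate 1 at 2.14% and fbf-2 replicate 3 at 2.25%. The fitted log2 fold change of fbf-2 over WT was -1.00 ± 0.25 (SE), with an adjusted p of 0.0309 (edgeR quasi-likelihood test, Benjamini-Hochberg over 13401 genes). This was 1 of 6 yolk genes called lower and 0 called higher, where 10.1% of all tested genes were called lower and 5.51% higher.

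The most abundant members differed less and overlapped. For vit-6 the shares were 1.65%, 3.01% and 2.56% in WT and 1.58%, 1.84% and 1.95% in fbf-2. WT replicate 1 lay among the fbf-2 libraries, and the other WT libraries above them. The log2 fold change of vit-6 was -0.57, with a 95% interval from -1.20 to 0.06 and an adjusted p of 0.185. For vit-2 the shares were 1.38%, 2.50% and 2.18% in WT and 1.24%, 1.48% and 1.60% in fbf-2, again with WT replicate 1 inside the fbf-2 range, and the log2 fold change was -0.63 (adjusted p = 0.148). For vit-5, with 0.911%, 1.53% and 1.43% in WT and 0.828%, 0.946% and 1.00% in fbf-2, it was -0.62 (adjusted p = 0.124).

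The neighbours vit-3 and vit-4 stood between these and vit-1. vit-3 had 0.455%, 0.791% and 0.655% in WT and 0.371%, 0.404% and 0.420% in fbf-2, a log2 fold change of -0.81 (adjusted p = 0.0514). vit-4 had 0.345%, 0.594% and 0.511% in WT and 0.291%, 0.322% and 0.334% in fbf-2, a log2 fold change of -0.76 (adjusted p = 0.0601). In both, the groups did not overlap, as in vit-1, which made 3 of 6 members without overlap and lower, against 20.1% of all genes tested. Same-numbered WT and fbf-2 libraries deviated together across genes. However, fbf-2 replicate 3 correlated with WT replicate 2 (0.297) nearly as well as with WT replicate 3 (0.329). With the replicate number as a block 3 of the 6 were called lower. That fit called 17.5% of all genes lower and 15.5% higher, more than the fit without the block. These were vit-1 (log2 -0.96, adjusted p = 0.00439), vit-3 (-0.76, 0.0111) and vit-4 (-0.71, 0.0114).

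The number of calls in fbf-2 rested on single libraries. Without WT replicate 1 all 6 genes were called lower, with log2 fold changes from -1.21 (vit-1) to -0.79 (vit-6) and adjusted p from 0.000215 to 0.00295. The same removal raised the share of all genes called lower to 18.1%. Without WT replicate 2, WT replicate 3 or any 1 of the fbf-2 libraries 0 were called. The adjusted p of vit-1 was then between 0.0680 and 0.123 while its direction stayed. Over all genes tested those removals left 509 to 788 called lower, against 1357 with all libraries. The authors' deposited table gives padj values under 0.05 for 4 of the 6 genes in fbf-2, with log2 fold changes of -0.96 for vit-1, -0.77 for vit-3, -0.71 for vit-4 and -0.57 for vit-5. The share of all genes under 0.05 in that table was not counted. DESeq2 run here on the same counts also called 4 of the 6 lower, beside 1331 of 12907 genes.

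**Figure D2:**
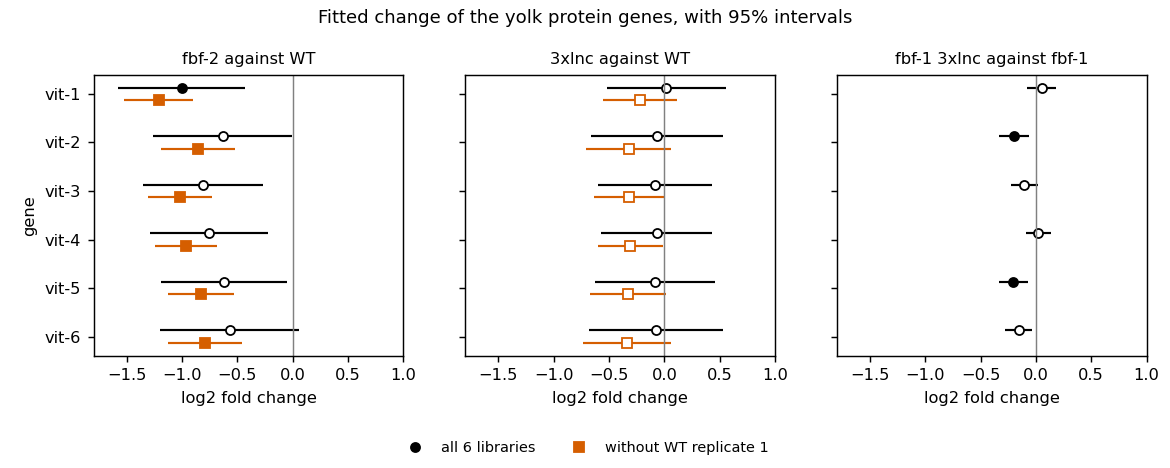
Fitted log2 fold change of each yolk protein gene (x axis) with its 95% interval in the 3 comparisons, from edgeR; circles use all 6 libraries, squares leave out WT replicate 1, and filled symbols have an adjusted p under 0.05. In fbf-2 against WT only vit-1 is filled with all libraries and all 6 genes are filled without WT replicate 1; in fbf-1 3xlnc against fbf-1 the intervals are narrow and vit-2 and vit-5 are filled.

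In 3xlnc worms none of the yolk genes passed the test against WT. For vit-1, WT had 0.758%, 1.29% and 1.15% of the counts and 3xlnc 1.12%, 1.16% and 1.080%. For vit-6, WT had 1.65%, 3.01% and 2.56% and 3xlnc 2.35%, 2.48% and 2.26%. The 3xlnc libraries lay close together, inside the range of WT, for all 6 genes. The log2 fold change was 0.02 for vit-1, with a 95% interval from -0.52 to 0.55, and -0.08 for vit-6, with an interval from -0.68 to 0.53. Adjusted p ran from 0.828 to 0.965 in edgeR, where 0 of 6 were called, 0 had an unadjusted p under 0.05, and DESeq2 called 0. Of all 13861 genes tested, 9.41% were called higher and 2.11% lower. Over the 6 genes the 95% intervals reached from -0.68 to 0.55 on the log2 scale.

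The estimates of that comparison moved with the WT library left out, while no yolk gene was called. Without WT replicate 2 the edgeR log2 fold changes were 0.12 (vit-5) to 0.24 (vit-1), and adjusted p was 0.513 to 0.768. Without WT replicate 1 they were -0.34 (vit-6) to -0.22 (vit-1), and adjusted p was 0.0970 to 0.291. Each 3xlnc library then lay below both remaining WT libraries in scaled counts for 6 of 6 genes, as did 29.1% of all genes, while in plain shares vit-1 and vit-3 still overlapped. With all libraries 0 of 6 were without overlap, against 15.8% of genes that were lower without overlap. The authors' deposited table gives padj values of 0.767 to 0.986 for the 6 genes in 3xlnc.

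In the fbf-1 background vit-2 and vit-5 were called slightly lower with the same linc mutations. vit-2 took 3.21%, 3.32% and 3.49% of the counts in fbf-1, against 2.86%, 2.88% and 2.91% in fbf-1 3xlnc. vit-5 took 2.15%, 2.18% and 2.26% in fbf-1, against 1.81%, 1.92% and 1.93% in fbf-1 3xlnc. Neither overlapped between the genotypes, and the libraries of each lay within a narrow band. vit-2 fell by 0.20 on the log2 scale (SE 0.059, adjusted p = 0.0483) and vit-5 fell by 0.21 (SE 0.058, adjusted p = 0.0405) in edgeR over 14104 genes. These 2 of 6 calls stood beside 8.49% of all genes called lower and 9.43% called higher.

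vit-6 was also without overlap, at 3.64%, 3.88% and 3.88% in fbf-1, against 3.43%, 3.31% and 3.39% in fbf-1 3xlnc, with a log2 fold change of -0.16 and an adjusted p of 0.0748. vit-3 had 0.911%, 0.894% and 0.926% in fbf-1, against 0.811%, 0.850% and 0.855% in fbf-1 3xlnc, with a log2 fold change of -0.10 (adjusted p = 0.202). In counts scaled over the 6 libraries of this comparison, as in shares, 4 of 6 members were lower without overlap, against 19.5% of all genes. vit-3 was the marginal one, and it overlapped when the scaling used no count filter. The other members overlapped. vit-1 had 1.338%, 1.31% and 1.41% in fbf-1, against 1.42%, 1.37% and 1.38% in fbf-1 3xlnc, a log2 fold change of 0.05 with a 95% interval from -0.08 to 0.18. vit-4 had 0.661%, 0.649% and 0.674% in fbf-1, against 0.653%, 0.668% and 0.673% in fbf-1 3xlnc, a log2 fold change of 0.02 with an interval from -0.09 to 0.13.

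These calls lay near the threshold. Leaving out fbf-1 replicate 3 gave 3 calls (vit-2, vit-5 and vit-6), beside 4.67% of all genes called lower. Leaving out any other 1 library gave 0. Those other removals left 498 to 1364 of all genes called lower, against 1197 with all libraries. Ribosomal RNA genes took 2.02% to 4.13% of the fbf-1 3xlnc counts against 0.218% to 1.00% in fbf-1. With them taken out of the totals the summed yolk shares were 12.3% in fbf-1, against 11.4% in fbf-1 3xlnc. The authors' deposited table gives log2 fold changes of -0.20 for vit-2, -0.21 for vit-5 and -0.16 for vit-6, with padj values of 0.000785, 0.000509 and 0.00334.

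Whether the change with the linc mutations differed between the WT and fbf-1 backgrounds was tested as an interaction over 12 libraries. The difference in log2 fold change ran from -0.12 (vit-2) to 0.10 (vit-4), with standard errors of 0.258 to 0.296 and adjusted p of 0.871 to 0.995. edgeR called 0 of 6 and gave 0 an unadjusted p under 0.05, DESeq2 called 0, and over all 14772 genes 2.54% were called higher and 3.66% lower. vit-2 and vit-5 were thus called in one background and not in the other, but the test of the difference did not pass for either, with 95% intervals from -0.75 to 0.52 and from -0.69 to 0.48.

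Set against one another, the yolk genes did not keep fixed proportions. Among the summed yolk counts, vit-1 made up 13.8%, 13.28% and 13.6% in WT, 10.6%, 10.7% and 10.9% in fbf-2, and 14.3%, 14.1% and 14.4% in 3xlnc. It made up 11.2%, 10.7% and 11.2% in fbf-1, against 12.9%, 12.5% and 12.4% in fbf-1 3xlnc. The groups did not overlap in any of the 3 comparisons: the share of vit-1 was lower in fbf-2 than in WT, higher in 3xlnc than in WT and, between the fbf-1 strains, higher with the linc mutations. WT replicate 1, which had the lowest yolk level of its group, had a vit-1 share of the pool like that of the other WT libraries.

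Other members shifted less. vit-6 made up 30.4% ± 0.52 of the pool in WT and 32.8% ± 0.14 in fbf-2 (SD, n = 3), without overlap. vit-4 made up 5.40% ± 0.14 in fbf-1, against 6.02% ± 0.066 in fbf-1 3xlnc, also without overlap. Between these strains vit-2 went from 27.2% ± 0.36 to 26.1% ± 0.085 and vit-5 from 17.9% ± 0.12 to 17.1% ± 0.52, each without overlap. By sequence family, vit-1 and vit-2 together made up 39.1% in WT, 37.1% in fbf-2, 39.8% in 3xlnc, 38.3% in fbf-1, and 38.7% with fbf-1 3xlnc. The trio of vit-3, vit-4 and vit-5 stayed between 30.1% and 30.7% in the means of all 5 genotypes. These proportions are descriptions, with no p, and the part of reads shared between near copies was not tested.

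**Figure D3:**
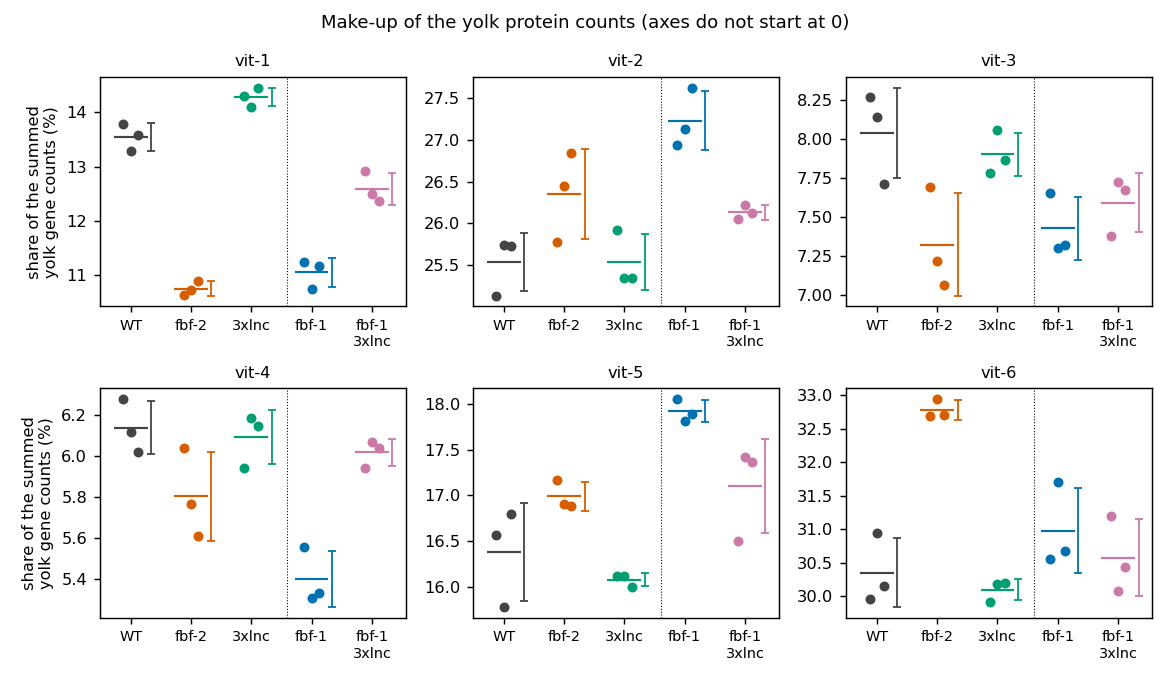
Share of the summed yolk gene counts taken by each gene (y axis, percent, not starting at 0) by genotype; points are libraries, horizontal lines means and bars the SD of 3 libraries, with the dotted line between libraries labelled total RNA and polyA RNA. The share of vit-1 is 10.6% to 10.9% in fbf-2 and 13.28% to 13.8% in WT, without overlap.

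Genes that act on yolk outside the intestine showed few changes without the block. RME-2, the oocyte yolk receptor, had transcript levels of 841, 907 and 1040 CPM in WT and 973 ± 42.5 CPM in fbf-2, 829 ± 11.3 in 3xlnc, 1095 ± 84.1 in fbf-1, and 1092 ± 79.3 with fbf-1 3xlnc (SD, n = 3). Its log2 fold changes were -0.07 (adjusted p = 0.771), -0.21 (0.300) and 0.01 (0.952) in the fbf-2, 3xlnc and fbf-1 3xlnc comparisons. Of 17 genes for uptake and endocytosis, 1 fell and 0 rose in fbf-2, 1 fell and 0 rose in 3xlnc, and 1 rose and 0 fell in fbf-1 3xlnc. With the replicate block 5 fell and 2 rose in fbf-2. The median log2 fold changes were -0.07, -0.11 and 0.01, beside -0.04, -0.02 and 0.00 over all genes tested.

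The gene that fell in both comparisons with WT was cav-1, which encodes a caveolin of germline membranes. It went from 107 ± 31.8 CPM in WT to 63.3 ± 8.43 in fbf-2 (log2 -0.87, adjusted p = 0.0116) and to 68.7 ± 6.78 in 3xlnc (-0.66, 0.0284); both comparisons use the same WT libraries. Removing WT replicate 3 ended both calls (adjusted p = 0.0554 and 0.0769). So did removing fbf-2 replicate 2 or 3 for the former (0.0512 and 0.0505) and any 1 of the 3xlnc libraries for the latter (0.0514 to 0.1296). In fbf-1 3xlnc apa-2, for a subunit of the clathrin adaptor AP-2, rose by 0.14 on the log2 scale (adjusted p = 0.0427), a call lost in DESeq2 (0.142) and in all single removals but that of fbf-1 3xlnc library 1 (0.0578 to 0.117). rab-35, for a GTPase that recycles the yolk receptor, had a log2 fold change of 0.30 in fbf-2 that missed the threshold (adjusted p = 0.0629) and passed with the block (0.0172). The next smallest adjusted p in the list were 0.0905 for apa-2 in fbf-2 (0.0135 with the block), 0.143 for rab-5 and 0.146 for snx-3 in 3xlnc, and 0.0813 for rme-8 and 0.138 for rab-11.1 in fbf-1 3xlnc.

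Yolk leaves the intestine as a lipoprotein, and dsc-4 encodes the microsomal triglyceride transfer protein that loads it with lipid. dsc-4 was at 47.3, 69.3 and 68.0 CPM in WT and 121, 106 and 114 CPM in 3xlnc, without overlap. It rose by 0.83 on the log2 scale in 3xlnc (SE 0.162, adjusted p = 0.0134), while the yolk transcripts of the same libraries did not pass the test. Leaving out WT replicate 3 (adjusted p = 0.0521), 3xlnc replicate 1 (0.0723) or 3xlnc replicate 3 (0.0559) ended the call, with log2 fold changes of 0.76 to 0.89. In fbf-2 it was at 87.2, 94.9 and 92.8 CPM (log2 0.43, adjusted p = 0.122; 0.00667 with the block), and in fbf-1 3xlnc at 87.1, 70.0 and 71.7 CPM beside 67.2, 68.2 and 66.5 in fbf-1 (log2 0.19, adjusted p = 0.0963). dsc-4 was the only one of 5 secretion genes called in any of the 3 comparisons, with the block or without. In 3xlnc 9.41% of all genes tested were called higher, and in fbf-2 with the block 15.5%. The cargo receptor gene sft-4, needed for yolk export from the endoplasmic reticulum, had log2 fold changes of -0.10, 0.10 and 0.05. The other secretion genes sar-1 (-0.13 in 3xlnc), sec-23 (-0.09 in fbf-1 3xlnc) and tfg-1 (-0.24 in fbf-2) had adjusted p of 0.220 or more.

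Of 20 genes known to regulate vitellogenin transcription, 4 fell and 0 rose in fbf-2. Their median log2 fold change was -0.26, beside -0.04 over all genes. With the replicate block 8 fell and 0 rose. Of all genes tested, 10.1% were called lower and 5.51% higher, and with the block 17.5% and 15.5%. unc-62, for a homeodomain activator of vit transcription, was at 41.1, 51.1 and 48.7 CPM in WT and 33.6, 33.2 and 34.1 CPM in fbf-2, without overlap. It fell by 0.62 on the log2 scale (adjusted p = 0.0185), and elt-2, for the intestinal GATA factor, fell by 0.59, from 10 ± 0.73 to 7.34 ± 0.77 CPM (adjusted p = 0.0392). lrp-2, for an LDL receptor-related protein that promotes vit expression, fell by 1.02 (adjusted p = 0.0244), and lin-29, for a zinc finger factor of the adult skin that acts on vit expression from another tissue, fell by 0.67 (adjusted p = 0.0268). The other fixed regulators did not pass in fbf-2: ceh-60 had a log2 fold change of -0.32 (adjusted p = 0.308), mab-3 of 0.27 (0.645) and pqm-1 of 0.36 (0.213). unc-62, elt-2 and lin-29 each lost their call without WT replicate 2, WT replicate 3 or any 1 of the fbf-2 libraries. Their adjusted p were then 0.0543 to 0.0914 for unc-62, 0.0838 to 0.149 for elt-2 and 0.0805 to 0.0966 for lin-29. The call of lrp-2 was lost without WT replicate 2 or 3 or fbf-2 replicate 1 or 2 (0.0737 to 0.107). Leaving out WT replicate 2, WT replicate 3 or 1 fbf-2 library lowered the calls over all genes from 2095 to between 698 and 1120.

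In 3xlnc 1 of the 20 regulators fell and 0 rose, with a median of 0.01, beside 2.11% of all genes called lower and 9.41% higher. It was akt-1, for a kinase of insulin signalling, which fell by 0.39 (adjusted p = 0.0325) and lost its call under 7 of 10 other settings, among them the removal of WT replicate 2 or 3 or any 1 of the 3xlnc libraries (0.0599 to 0.174). unc-62 had a log2 fold change of 0.03 (adjusted p = 0.893), ceh-60 of 0.30 (0.284), elt-2 of -0.40 (0.138), pqm-1 of 0.35 (0.304), sgk-1 of 0.47 (0.0824) and mab-3 of 1.07 (0.0759) at a mean of only 1.71 CPM.

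In fbf-1 3xlnc 3 regulators rose and 1 fell, with a median of 0.06, beside 9.43% of all genes called higher and 8.49% lower. sgk-1, for a kinase of the TOR pathway, rose from 12.3 ± 0.68 to 17.6 ± 1.5 CPM (log2 0.53, adjusted p = 0.00453). unc-62 rose from 40.6, 39.6 and 40.0 to 46.4, 46.3 and 46.8 CPM (log2 0.23, adjusted p = 0.00645), without overlap and while vit-2 and vit-5 fell. lrp-2 rose by 0.23 (adjusted p = 0.0295), a call lost without fbf-1 replicate 1 (0.105) or 3 (0.101). pqm-1, for a zinc finger factor of the intestine, fell by 0.35 (adjusted p = 0.0333), which was lost in DESeq2 (0.0800) and in all single removals but that of fbf-1 3xlnc library 1 (0.0719 to 0.107). elt-2 had a log2 fold change of 0.36 that missed the threshold (adjusted p = 0.0638), ceh-60 of 0.15 (0.430) and mab-3 of -0.09 (0.856). The interaction over 12 libraries passed for elt-2 (0.77, adjusted p = 0.0388; 0.00715 to 0.102 with 1 library left out) and not for unc-62 (0.22, adjusted p = 0.421) or dsc-4 (-0.62, adjusted p = 0.0789).

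Other intestinal genes did not move as a block with the yolk genes. Of 22 intestinal markers, 8 fell and 4 rose in fbf-2, 1 fell and 6 rose in 3xlnc, and 5 fell and 8 rose in fbf-1 3xlnc. Their summed level in WT was 5731 to 6531 CPM, with fbf-2 at 4921 to 5149 and 3xlnc at 7497 to 7957. The fbf-1 libraries were at 5017 to 5450 CPM, those of fbf-1 3xlnc at 5720 to 6209. Every fbf-2 library thus lay below WT in this sum, and its mean yolk share was also lower, though with overlap. Every 3xlnc library lay above WT in the sum, whereas its yolk share lay inside the WT range. The fbf-1 3xlnc libraries lay above fbf-1 in the sum and below it in the yolk share. The 2 fbf-1 strains were not ranked against the other genotypes, because their molecule label differs. pept-1, for the intestinal peptide transporter, fell by 1.76 in fbf-2 (114 ± 8.73 to 37.1 ± 5.30 CPM, adjusted p = 0.000297) and rose by 0.91 in fbf-1 3xlnc (adjusted p = 0.000272). fat-6, for a fatty acid desaturase, rose by 1.17 in fbf-2 (adjusted p = 0.000288) and by 0.71 in 3xlnc (0.00747; 0.0510 without WT replicate 3) and fell by 0.86 in fbf-1 3xlnc (1.28e-05). cpr-6, for a cathepsin B-like protease, fell by 0.88 in fbf-2 (adjusted p = 0.00110), and the related cpr-4 rose by 1.55 in 3xlnc (0.000102). ifb-2, for an intermediate filament of the gut, rose by 0.69 in 3xlnc (adjusted p = 0.0105; 0.0541, 0.0608 and 0.0608 without WT replicate 3, 3xlnc replicate 1 and 3xlnc replicate 3), and fat-5, a further desaturase gene, fell by 1.58 in fbf-1 3xlnc (3.76e-05).

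Markers of other tissues and stages moved in the same comparisons. Of 28 tested major sperm protein genes, 20 fell in fbf-2, 25 rose in 3xlnc and 27 rose in fbf-1 3xlnc. Summed over the list, WT held 226 to 338 CPM, fbf-2 112 to 177, 3xlnc 430 to 600, fbf-1 110 to 184, and fbf-1 3xlnc 249 to 586; these genes are near copies of one another. Genes transcribed in the early embryo fell in 5 of 13 cases in fbf-2 and 7 of 14 in 3xlnc, at 86.5 to 91.8 and 75.0 to 94.0 CPM beside 116 to 141 CPM in WT, and 1 of 14 rose in fbf-1 3xlnc; with the block 9 of 13 fell in fbf-2. Of 16 oocyte and eggshell genes, 2 fell in fbf-2, 1 fell in 3xlnc and 0 changed in fbf-1 3xlnc. Molting genes fell in 6 of 15 cases in fbf-2 (8 with the block), 2 rose in 3xlnc, and 2 rose and 2 fell in fbf-1 3xlnc. Of 6 adult cuticle genes 3 rose in 3xlnc. The part of these differences, which bear on the stage and contents of the worms, in the yolk levels was not tested.

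Across the 15 libraries the yolk genes moved closely together. Pearson's r between pairs of them, on log2 CPM, lay between 0.920 and 0.998 for the 15 pairs, and between 0.968 and 0.997 after subtracting each group's mean. The libraries share genotype, molecule label and depth, so these are descriptions of the set. Of 10351 other genes with a mean of 50 counts or more, the pattern most like the mean of the 6 yolk genes was that of C39D10.7 (r = 0.986), followed by hmit-1.1 (0.981), mca-1 (0.976), perm-4 (0.973) and frm-3 (0.969), each over 15 libraries. C39D10.7 was at 624, 1076 and 927 CPM in WT, 502, 557 and 590 in fbf-2, and 751, 837 and 682 in 3xlnc. It was at 1170, 1204 and 1136 CPM in fbf-1, against 1047, 1116 and 1131 in fbf-1 3xlnc, so that like the yolk genes it was lower in WT replicate 1 than in the other WT libraries and highest in fbf-1. Unlike the yolk share, it was lower in fbf-1 3xlnc library 1 than in WT replicate 2.

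C39D10.7 fell by 0.81 on the log2 scale in fbf-2 (adjusted p = 0.0418). perm-4, for an eggshell protein, fell by 0.65 there, from 1150 ± 141 to 809 ± 20.1 CPM (adjusted p = 0.0206). Both calls were lost when any 1 library other than WT replicate 1 was left out, at adjusted p of 0.0837 to 0.147 and 0.0517 to 0.0893. Since these genes were picked for their likeness over the same libraries, their changes are no separate evidence. hmit-1.1, for an inositol transporter, was scarce, at 1.38 to 6.44 CPM over the 15 libraries, with a log2 fold change of -1.02 in fbf-2 (adjusted p = 0.0602; 0.0153 with the block). mca-1, for a calcium pump of the plasma membrane, had a log2 fold change of -0.49 (adjusted p = 0.0757; 0.00104 with the block) and frm-3 of -0.42 (0.183). In 3xlnc and in fbf-1 3xlnc 0 of these 5 genes passed, with log2 fold changes from -0.26 to 0.09 and from -0.32 to 0.05.

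**Figure D4:**
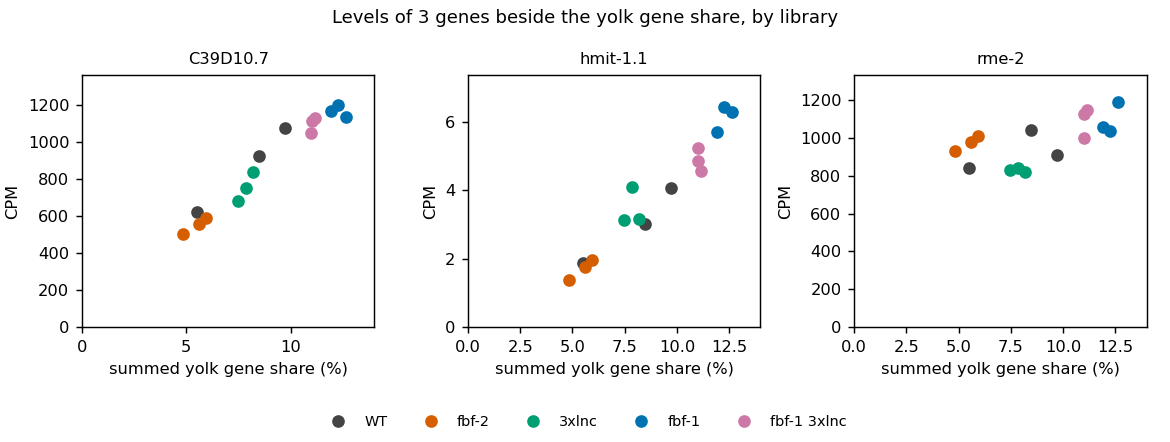
Level in CPM (y axis) of C39D10.7 and hmit-1.1, the genes most like the yolk genes over 15 libraries, and of the yolk receptor gene rme-2, against the summed yolk gene share of each library (x axis, percent); points are libraries, coloured by genotype. C39D10.7 runs from 502 CPM in an fbf-2 library to 1204 CPM in an fbf-1 library, while fbf-2 libraries hold as much rme-2 as WT.

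Within genotypes the closest patterns were those of other genes. After subtracting group means, sec-24.2, for a coat protein of vesicles leaving the endoplasmic reticulum, had r = 0.995 with the yolk genes. It was followed by npp-11, for a nucleoporin (0.994), ccar-1 (0.993), egl-45, for a translation initiation factor subunit (0.991), and imph-1 (0.988). In fbf-2 against WT 0 of these 5 passed, with log2 fold changes of -0.28 (egl-45) to -0.06 (ccar-1), and 0 passed in 3xlnc or fbf-1 3xlnc. They were close to the yolk genes in their spread within groups, which was widest in WT, and not in their group means.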

How the data were processed

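RNA of whole adult worms was extracted with TRIzol and a column kit and made into libraries with an mRNA kit, per the labels' protocols. The submitters' processing notes name STAR 2.7.9a, Subread 2.0.1 with featureCounts, DESeq2 1.34.0 and the build WBcel235. Not given in the sources used here are the annotation release, the strand setting and how multi-mapping reads were counted. The authors deposited 3 tables of raw counts per gene over the same 46904 identifiers, with identical WT counts where repeated; their own log2 fold changes and padj values, other deposited columns of the same tables, are quoted only where named. A further 18 normalised columns were not used. Column names of fbf-1 3xlnc identify the genotype only, so its library numbers serve only to tell libraries apart. Positions came from the WBcel235 annotation, release 115, which held 46817 of the identifiers. It lists C42D8.9, T27A10.8 and F59D8.3 on the opposite strand of vit-2, vit-3 and vit-4, with at most 46 counts over 15 libraries.

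Shares are counts over the library total, with Wilson intervals for counting error only. In R 4.3.3, edgeR 4.0.16 (filterByExpr, TMM, quasi-likelihood F test, no block) was run on the 6 libraries of each comparison, and on 12 for the interaction, with Benjamini-Hochberg adjustment over all genes tested and 0.05 as the threshold; fold changes are mutant over control. With 3 libraries a group an exact permutation test of a single value cannot go below p = 0.1. The procedure was checked on simulated counts. Libraries of a group differed beyond sampling noise (lowest chi-square per degree of freedom 5.83). Same-numbered fbf-2 and WT libraries deviated together (correlations 0.520, 0.365 and 0.329), which pairs them by the rule used. The pairing was not clear for fbf-2 replicate 3, which had 0.297 with WT replicate 2, and the other unlike-numbered pairs were negative. Same-numbered 3xlnc and WT libraries did not deviate together (0.029, 0.18 and -0.10). Alternatives were other scalings, filters and totals, DESeq2 1.42.0, the block and leaving out each library. The members, lists and tests were chosen with earlier results of these data known. Genes named besides the members are 7 fixed ones, the 3 with the smallest adjusted p of the uptake, secretion, regulator and intestine lists in each comparison, and the 5 most alike by Pearson's r on log2 CPM (prior count 2), over libraries and after subtracting group means.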

Additional observations from a re-analysis of the deposited data

How the results depend on the processing

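In fbf-2 the number of yolk genes called was 1, and 3 with upper-quartile scaling, 3 with no filter, 2 with a filter at 1 CPM, 4 with DESeq2, 3 with the replicate block and 0 to 6 when 1 library was left out. The direction was lower for all 6 genes in every one of these runs. Over all genes 1357 of 13401 were called lower, and 1682 of 13401 with upper-quartile scaling and 1654 of 21771 with no filter. The numbers were 1380 of 11818 with the filter at 1 CPM, 1331 of 12907 with DESeq2 and 2340 of 13401 with the block. With 1 library left out they ran from 509 of 13824 to 2480 of 13709. In fbf-1 3xlnc the number was 2, and 1 with upper-quartile scaling, 1 with library sizes that leave out the yolk genes, 0 with no filter, 3 with a filter at 1 CPM, 3 with DESeq2 and 0 to 3 without 1 library, where vit-4 ran from -0.0071 to 0.054 on the log2 scale. In 3xlnc 0 were called throughout, and signs near 0 turned. vit-1 was -0.0069 with DESeq2, and with upper-quartile scaling vit-2 was 0.021, vit-3 0.0031, vit-4 0.018, vit-5 0.0035 and vit-6 0.0072. Leaving out 1 library there gave -0.22 to 0.24 for vit-1, -0.32 to 0.18 for vit-2, -0.32 to 0.17 for vit-3, -0.31 to 0.17 for vit-4, -0.33 to 0.12 for vit-5 and -0.34 to 0.18 for vit-6. For the interaction vit-1 was -0.0090 with upper-quartile scaling and -0.0048 with no filter, and leaving out 1 library gave -0.16 to 0.26 for vit-1, -0.35 to 0.11 for vit-2, -0.25 to 0.20 for vit-3, -0.12 to 0.31 for vit-4, -0.30 to 0.11 for vit-5 and -0.31 to 0.16 for vit-6, with 0 called. Summed shares were 8.51% (3xlnc), 13.97% (fbf-1) and 12.4% (fbf-1 3xlnc) of totals without yolk genes, and for fbf-1 3xlnc 11.4% without ribosomal RNA genes and 11.4% of TMM library sizes. Over all genes fbf-2 had 698 to 5003 calls, 3xlnc 395 to 4764, fbf-1 3xlnc 1140 to 2942, and the interaction 545 to 2763. The cause of these changes was not tested.

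Same-numbered 3xlnc and WT libraries did not deviate together, and the replicate block called 0 yolk genes there. In fbf-2 the block changed the calls given in the report beside vit-3, vit-4, dsc-4, rab-35, apa-2, hmit-1.1 and mca-1 and of no other gene whose fbf-2 value is given there. No paired analysis was possible for fbf-1 3xlnc against fbf-1 or for the interaction because the fbf-1 3xlnc columns carry no match to single samples. Counting error was at most 1.11% of a value. WT replicate 1 was the shallowest library and the one with the highest share of ribosomal RNA counts; the part of either in its yolk levels was not tested.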
